A study of Mus musculus with 8 samples.

Results

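ATF4 is the transcription factor of the integrated stress response. Cells make more ATF4 protein when a kinase phosphorylates the initiation factor eIF2, because the Atf4 messenger is then translated in spite of a general fall in protein synthesis. ATF4 pairs with C/EBP proteins and switches on genes for amino acid synthesis, serine and one-carbon metabolism, transfer RNA charging and the feedback that ends the response. The data described here are the messenger levels of 40 genes of this programme in a squamous carcinoma line that received a microRNA. They were chosen by name, and all 40 were found by the gene symbol of a probe among the 30139 named genes of the array, with the brightest probe taken for each gene. An array measures messenger only, so neither ATF4 protein nor eIF2 phosphorylation was measured.

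The cells were mSCC-20, a cutaneous squamous cell carcinoma line of FVB/N mice, and their total RNA was read on 8 Agilent arrays in the Cy3 channel alone. In the set whose labels give an amount of 0.2 µg, 2 arrays held cells given a control microRNA (NC) by transfection and 2 held cells given miR-193b. In the set labelled 0.6 µg, 2 arrays held NC cells and 2 held cells given miR-365a. The labels do not say what was weighed, how long after transfection the cells were taken or whether the 2 arrays of a group came from separate cultures, so a p-value reflects the spread from array to array, which may be technical. The controls of each microRNA were the NC arrays carrying its amount label, and the differences share no array. Except where a set was fitted alone, the spread was estimated over both sets. The p-values of each comparison therefore also draw on the arrays of the other set. In the 0.2 set, 1 NC and 1 miR-193b array lay on slide 1. The other NC array lay on slide 2 and the other miR-193b array on slide 3. All arrays of the 0.6 set lay on slide 4. A difference between the effects of the microRNAs cannot be told apart from one between the sets.

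Both microRNAs act by pairing of bases 2 to 8, the seed, with messengers. Their mature sequences are shown because they are the agents transfected, in RefSeq's GRCm38.p6 annotation, with the seed in capitals. The RefSeq table lists miR-365-3p at 2 places with the same mature sequence, and the study's title calls it miR-365a-3p. The seeds differ, so the microRNAs belong to different seed families.
mmu-miR-193b-3p, chr16:13449570-13449591, plus strand: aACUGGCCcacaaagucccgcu
mmu-miR-365-3p, chr16:13453895-13453916, plus strand: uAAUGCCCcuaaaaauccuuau

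ATF4 and C/EBP proteins bind a composite site, the amino acid response element. Its core was searched as TGATGNAAN on both strands, from 250 bases before to 50 bases after each transcription start in the RefSeq promoter table. The table held a promoter for 31 of the 40 genes, and 11 of these genes (35.5%) had a match, against 4.50% of all 27025 genes in the table. The matches were in Nupr1, Trib3, Asns, Chac1, Vldlr, Pck2, Aars, Gars, Yars, Iars and Tars. A match is a description of the letters and not a measured site. Stretches of 3 promoters are shown on the strand of the gene, with the matched letters in capitals, because Asns and Chac1 went opposite ways after miR-365a and Pck2 was not called.
Asns, chr6:7693210-7693262, minus strand, match 23 bases before the start: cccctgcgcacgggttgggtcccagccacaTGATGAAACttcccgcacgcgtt
Chac1, chr2:119351018-119351086, plus strand, match 194 bases before the start: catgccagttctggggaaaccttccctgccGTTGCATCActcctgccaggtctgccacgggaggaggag
Pck2, chr14:55540132-55540200, plus strand, match 104 bases before the start: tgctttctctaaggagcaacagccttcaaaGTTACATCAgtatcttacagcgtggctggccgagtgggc

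Each array held 43020 gene spots and none was saturated. The scanner software judged 51.4 to 54.6% of spots well above background on the 0.2 arrays, against 58.9 to 62.1% on the 0.6 arrays. All 9 keratinocyte and carcinoma markers were well above background on every array, and their summed linear level, relative to the array's 75th percentile, was 650 and 665 on the NC arrays of the 0.2 set, 805 and 818 after miR-193b, 676 to 744 on the NC arrays of the 0.6 set and 684 to 814 after miR-365a. It was thus higher on both miR-193b arrays than on both of their NC arrays. The summed level of 6 fibroblast markers was 0.0942 to 0.292 over all arrays, with 0.103 and 0.109 on the NC arrays of the 0.2 set and 0.125 and 0.128 after miR-193b, and that of 4 melanocyte markers 0.187 to 0.432. Endothelial markers summed to between 1.20 and 1.64 on the 0.2 arrays, but to between 3.46 and 4.88 on the 0.6 arrays. Leukocyte markers summed to between 3.31 and 4.02, and to between 5.66 and 7.30. Of 3 tested endothelial markers, Esam was called higher after miR-193b (33.3%, against 2.92% of all genes). The other 2 were below 0, and the median of the 3 was -0.022. Summed endothelial and leukocyte levels differed between the sets, and summed keratinocyte levels were higher after miR-193b. On the 0.2 arrays 1 or 2 of 6 fibroblast markers were well above background. Of 9 keratinocyte and carcinoma markers, none was called after miR-193b. After miR-365a 1 rose and 1 fell (22.2%, against 15.8% of all genes), with a median of -0.41. Of 3 tested fibroblast markers none was called after either microRNA. Between the NC arrays 2 of them were called higher in the 0.6 set (66.7%, against 15.6% of all genes), and the other differed by -0.57. Among leukocyte and among endothelial markers 1 of 3 tested was called higher there (33.3%). Of 9 keratinocyte and carcinoma markers 1 was called lower (11.1%), and of 3 tested melanocyte markers none was called. The part of these markers in the results was not tested. In bulk RNA, fewer cells of a type and less RNA per cell cannot be told apart.

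Levels below are log2 values relative to the 75th percentile of the same array, so they compare arrays for 1 probe and not different genes. Testing was limited to the 17855 genes whose brightest probe cleared background on the 2 arrays of some group. Of the 40 genes, 38 were tested, 37 of them above background on all 8 arrays and Pck2 on 7. Stc2, a secreted glycoprotein, was not well above background on any array. Vldlr, a lipoprotein receptor, was above it on 2 arrays, 1 NC and 1 miR-365a array of the 0.6 set. Vldlr stood at -8.35 and -5.79 on the NC arrays of that set and at -8.39 and -5.84 on the miR-365a arrays, so the spread within each group exceeded any difference between them. Stc2 and Vldlr entered no test. The word called is used for an adjusted p under 0.05 in limma, with Benjamini-Hochberg adjustment over all 17855 genes.

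After miR-193b, none of the 38 tested genes was called by limma, against 2.92% of all genes tested, 1.75% called higher and 1.17% called lower. That share of all genes was itself 0% with the 0.2 set fitted alone, 0.0365% without a filter on dim probes, and between 0.174% and 1.57% when any 1 of the 8 arrays was left out. At an unadjusted p under 0.05 there were 6 (15.8%), namely Cbs, Mthfd2, Sesn2, Pck2, Mthfd1 and Psph, against 21.5% of all genes. Of these, Pck2 stood near background. With other processing the count of called genes was between 0 and 3. The median log2 difference of the 38 genes was 0.0843, beside 0.0492 for all genes. Of the 38 genes, 24 were above 0 and 14 below, and 44.4% of all genes were below 0. The median size of the difference, without its sign, was 0.16 for the 38 genes and 0.24 for all genes.

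After miR-365a, 6 of the 38 were called by limma (15.8%), and the share among all genes tested was also 15.8%, 7.81% higher and 8.04% lower. The share of the group called equalled that of all genes tested, some of which were not above background on every array. With only probes well above background on all 8 arrays, 6 of 37 were called, against 23.5% of the 14613 genes kept. Chac1 and Sesn2 rose, and Atf4, Atf5, Asns and Mthfd2 fell. The median log2 difference was -0.0042 for the 38 genes, with 19 above 0 and 19 below, beside 0.0229 for all genes. Of all genes, 47.0% were below 0. No gene of the 38 moved by 2-fold in either comparison, while 5.44% of all genes did after miR-193b and 8.52% after miR-365a. Without adjustment, 11 of 38 (28.9%) had a p under 0.05, against 31.3% of all genes. The number of called genes depended on single arrays. It was 0 without replicate 1 of the NC arrays or replicate 2 of the miR-365a arrays of the 0.6 set, 1 without the other NC or miR-365a array, and 3 without either miR-193b array. Without any 1 array of the 0.6 set the share of all genes called was between 3.37% and 7.81%. The count was also 1 (Chac1) when dim probes were not filtered.

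**Figure D1:**
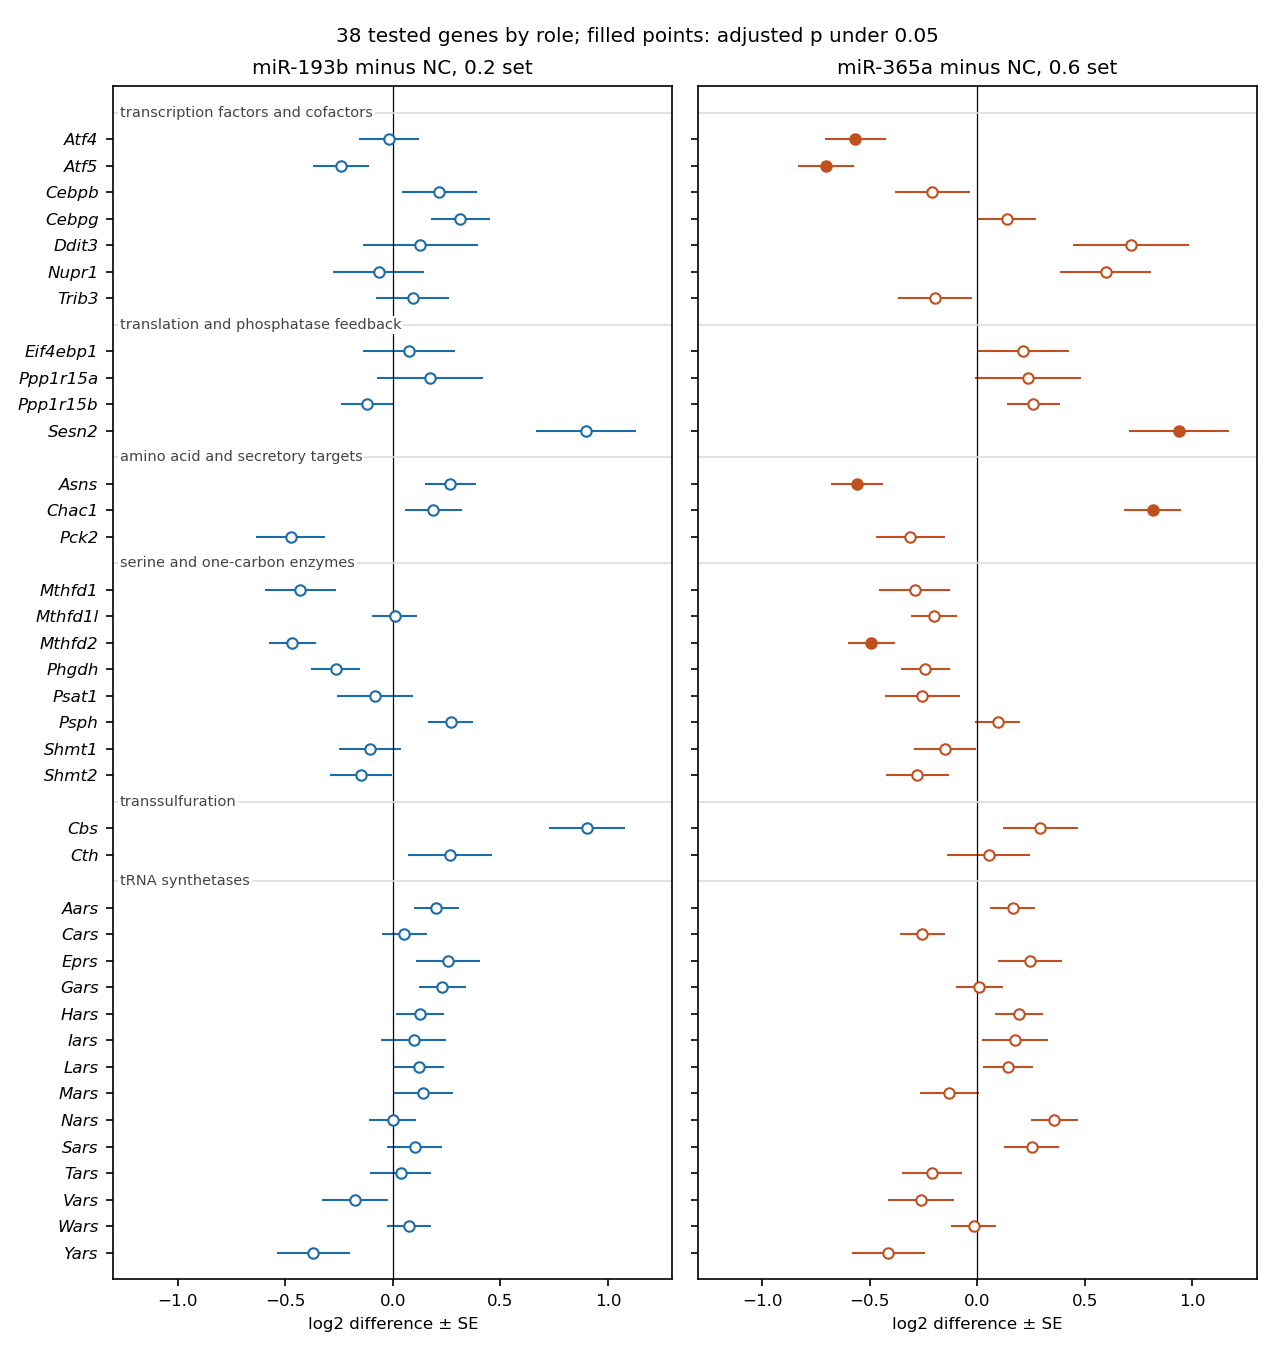
The log2 difference (x axis) with its standard error is plotted for the 38 tested genes, grouped by role, after miR-193b in the 0.2 set (left) and miR-365a in the 0.6 set (right). Filled points had an adjusted p under 0.05: none on the left, and Atf4, Atf5, Sesn2, Asns, Chac1 and Mthfd2 on the right.

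**Figure D2:**
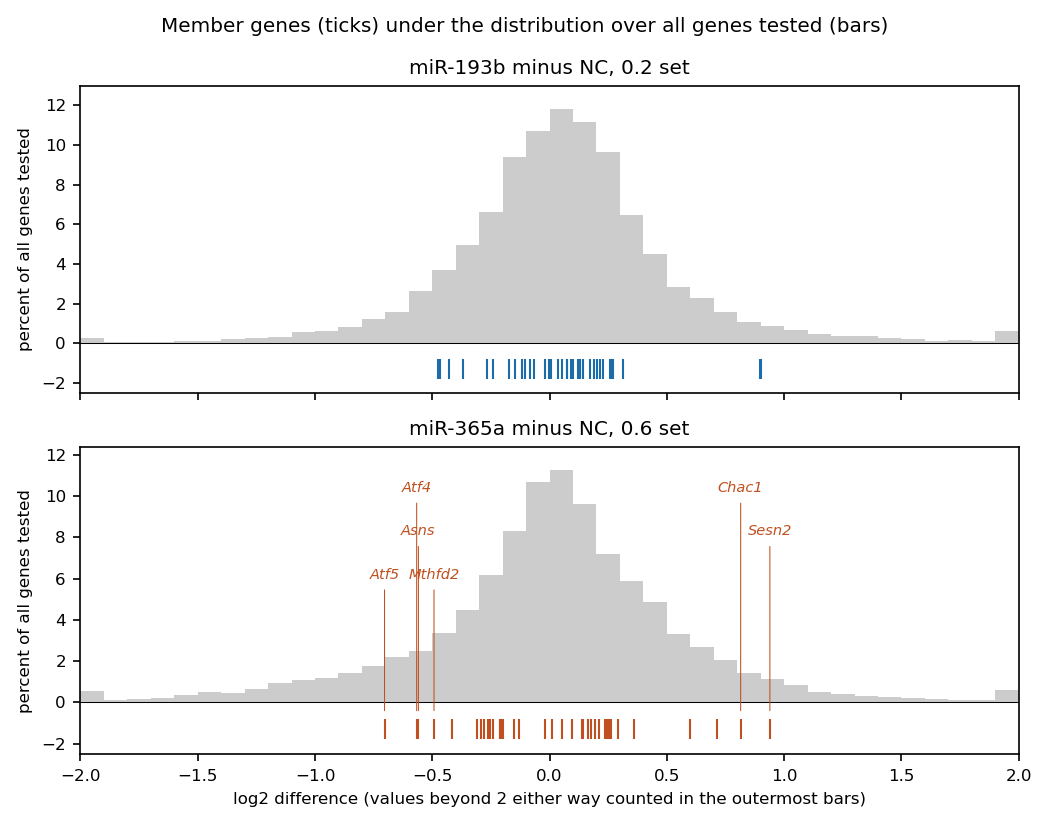
Grey bars give the percent of the 17855 genes tested at each log2 difference (x axis), and ticks mark the 38 genes of the programme after miR-193b (top) and miR-365a (bottom). The ticks lie within 1 log2 unit of 0 in both panels, and the 6 named genes were called after miR-365a.

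Of the 7 transcription factors and cofactors, none was called after miR-193b and 2 (28.6%) fell after miR-365a. Of all genes tested, 2.92% and 15.8% were called. Atf4, measured by a probe at chr15:80087902-80087961 (mm9, as for all probes), read 5.71 and 5.66 on the NC arrays and 5.15 and 5.08 on the miR-365a arrays of the 0.6 set. Both miR-365a arrays lay below both NC arrays, a log2 difference of -0.57 ± 0.14 (SE), 1.48-fold lower (limma adjusted p = 0.0431). In the 0.2 set Atf4 read 5.63 and 5.75 on the NC arrays and 5.83 and 5.51 after miR-193b. The groups overlapped there, with a difference of -0.0195 ± 0.14 (limma adjusted p = 0.950). A second, dimmer Atf4 probe gave differences of -0.32 after miR-193b and -0.29 after miR-365a, so the probes disagreed after miR-193b. The Atf4 call after miR-365a held in 9 of 19 alternatives, with limma adjusted p from 0.0176 to 0.185. It was lost with quantile normalization, with the mean of both probes, without a filter on dim probes, with array position on the slide as a term and without any 1 of 6 arrays.

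Atf5, a paralogue of Atf4 that is translated in a similar way, read 2.30 and 2.20 on the NC arrays and 1.48 and 1.60 on the miR-365a arrays. It fell by 0.70 ± 0.13, or 1.63-fold (limma adjusted p = 0.0196). After miR-193b Atf5 read 1.66 and 1.52 against 1.94 and 1.71, a difference of -0.24 ± 0.13 (limma adjusted p = 0.339). The call after miR-365a held in 14 of 19 alternatives and was lost without a filter on dim probes and without any 1 array of the 0.6 set.

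Ddit3 encodes CHOP, the factor linked to cell death under lasting stress. It read -2.89 and -2.37 on the NC arrays and -1.84 and -1.99 on the miR-365a arrays. Both miR-365a arrays lay above both NC arrays, by 0.71 ± 0.27 on average, and the difference was not called (limma adjusted p = 0.130). In the 0.2 set Ddit3 read -2.39 and -3.10 on the NC arrays and -2.62 on both miR-193b arrays, which lay between them.

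Nupr1, a small stress-induced chromatin protein, is given by array although it lies outside the rule for genes named with values. It read 2.40 and 2.48 on the NC arrays and 3.23 and 2.84 after miR-365a, a difference of 0.60 ± 0.21 (limma adjusted p = 0.111). Trib3, a pseudokinase that ATF4 induces and that restrains it, read 1.22 and 1.18 on the NC arrays and 1.12 and 0.89 after miR-365a. Its difference was -0.20 ± 0.17 (limma adjusted p = 0.510). After miR-193b Trib3 read 1.65 and 1.31 against 1.52 and 1.26, and the groups overlapped. Cebpb and Cebpg, the C/EBP partners of ATF4, differed by 0.22 and 0.31 after miR-193b and by -0.21 and 0.14 after miR-365a, none of them called.

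Among the 4 genes of translational control and phosphatase feedback, Sesn2 was called after miR-365a (25%, against 15.8% of all genes). Sesn2 encodes sestrin 2, a leucine sensor that restrains mTORC1. It read 0.22 and 0.71 on the NC arrays and 1.15 and 1.66 on the miR-365a arrays, and rose by 0.94 ± 0.23, or 1.92-fold (limma adjusted p = 0.0434). On the 0.2 set it read -0.12 and -0.33 on the NC arrays and 0.73 and 0.62 after miR-193b. That difference was of like size, 0.90 ± 0.23 or 1.86-fold, and was not called (limma adjusted p = 0.0971). The difference between the effects was 0.0408 (limma adjusted p = 0.959). The call after miR-365a held in 9 of 19 alternatives and was lost when any 1 of the 8 arrays was left out, without a filter on dim probes and with the 0.6 set fitted alone. The Sesn2 difference after miR-193b was called in 2 of 19.

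The other genes of this role were not called. Ppp1r15a and Ppp1r15b, the regulatory subunits that lead a phosphatase to eIF2, differed by 0.17 and -0.12 after miR-193b and by 0.24 and 0.26 after miR-365a. Eif4ebp1, a repressor of cap-dependent translation, differed by 0.076 and 0.21.

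Of the 3 tested amino acid and secretory targets, Asns and Chac1 were called after miR-365a in opposite directions (66.7%, against 15.8% of all genes). Asns encodes asparagine synthetase, a textbook target of ATF4, and its probe lies at chr6:7625171-7625228. It read 5.43 and 5.46 on the NC arrays and 4.89 and 4.88 on the miR-365a arrays. The arrays of each group lay close together, and Asns fell by 0.56 ± 0.12, or 1.47-fold (limma adjusted p = 0.0283). In the 0.2 set Asns read 5.44 and 5.67 on the NC arrays and 5.83 and 5.81 after miR-193b, so both miR-193b arrays were above both NC arrays. The difference was 0.27 ± 0.12 and was not called (limma adjusted p = 0.259). The miR-365a effect minus the miR-193b effect was -0.83 for Asns (limma adjusted p = 0.0548).

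Chac1 encodes an enzyme that degrades glutathione, and its probe lies at chr2:119179990-119180049. It read 0.28 and 0.35 on the NC arrays and 1.01 and 1.26 on the miR-365a arrays, a rise of 0.81 ± 0.13, or 1.76-fold (limma adjusted p = 0.0131). In the 0.2 set Chac1 read -0.04 and -0.19 on the NC arrays and 0.05 and 0.10 after miR-193b, a difference of 0.19 ± 0.13 (limma adjusted p = 0.436). The Chac1 call after miR-365a held in 17 of 19 alternatives, and the exceptions were leaving out NC replicate 1 or miR-365a replicate 2 of the 0.6 set. The Asns call held in 12 of 19 and was lost without a filter on dim probes and without any 1 array of the 0.6 set or of the miR-193b arrays. Pck2, the mitochondrial enzyme that makes phosphoenolpyruvate, differed by -0.47 ± 0.16 after miR-193b and -0.31 ± 0.16 after miR-365a, neither called. Its probe had a mean level of -5.13 and was above background on 7 of 8 arrays, so these differences lie near background.

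**Figure D3:**
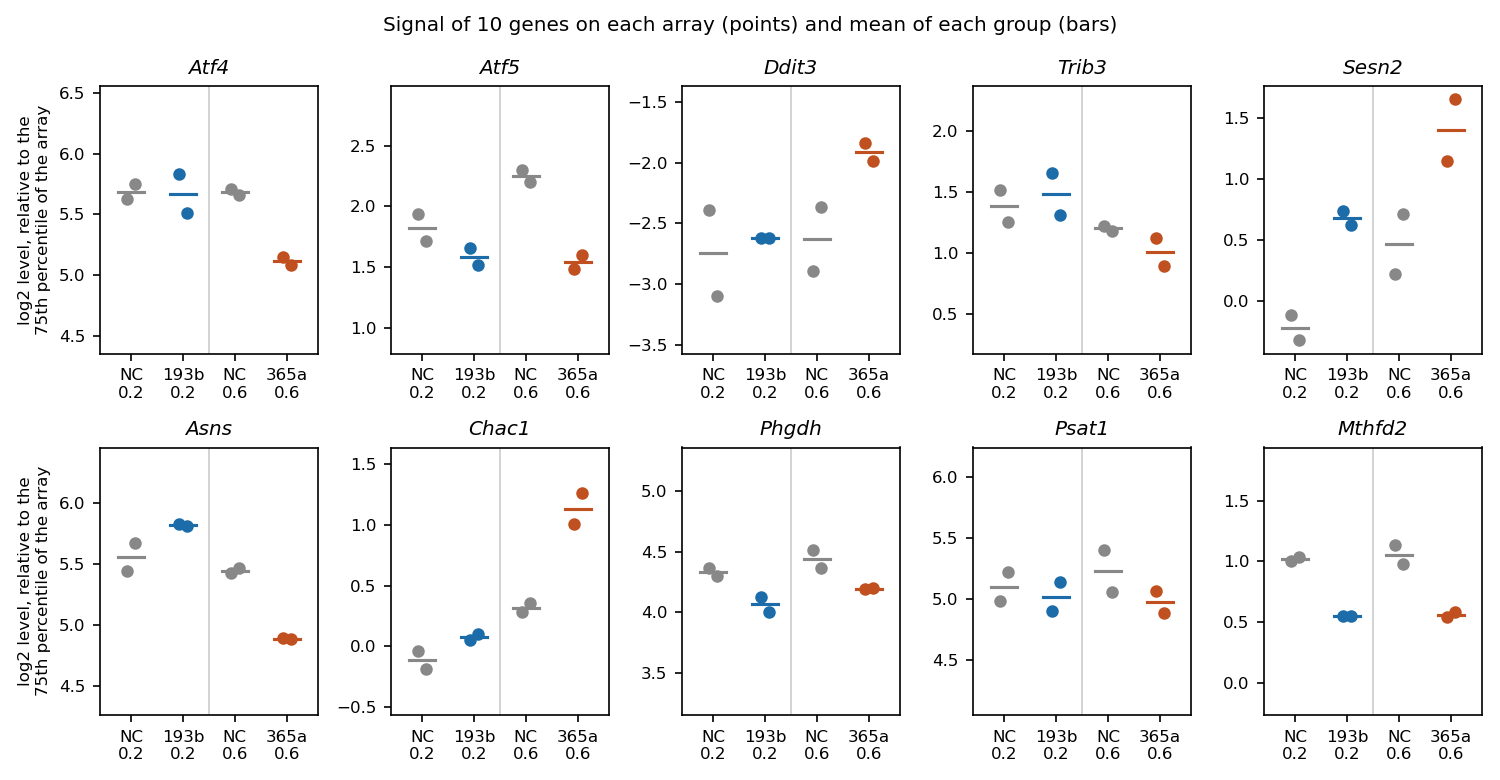
The log2 level of 10 genes relative to the array's 75th percentile (y axis, each panel spanning the same range) is plotted for each array (points) with the mean of each group (bars), in the 0.2 set left of the grey line and the 0.6 set right of it. Atf4, Asns and Trib3 were lower and Ddit3 higher on both miR-365a arrays than on both NC arrays of the 0.6 set. Mthfd2, Atf5 and Phgdh were lower and Chac1 and Sesn2 higher on both arrays of each microRNA than on both of its NC arrays. Such separation is not a call, and Ddit3, Trib3 and Phgdh were not called.

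Among the 8 serine and one-carbon enzymes, 7 had a difference below 0 after miR-365a and 6 after miR-193b, with medians of -0.25 and -0.13. Of all genes tested, 47.0% and 44.4% were below 0. Only Mthfd2 of the 8 enzymes was called, after miR-365a (12.5%, against 15.8% of all genes). Mthfd2 is a mitochondrial folate enzyme that is high in many dividing and tumour cells, and its probe lies at chr6:83256518-83256577. It read 1.13 and 0.98 on the NC arrays and 0.54 and 0.58 on the miR-365a arrays, and fell by 0.49 ± 0.11, or 1.41-fold (limma adjusted p = 0.0314). In the 0.2 set it read 1.00 and 1.04 on the NC arrays and 0.55 on both miR-193b arrays, a difference of -0.47 ± 0.11 that was not called (limma adjusted p = 0.0778). The effects differed by -0.026 (limma adjusted p = 0.943). After miR-365a the call held in 11 of 19 alternatives and was lost without any 1 array of the 0.6 set, without either miR-193b array, without a filter on dim probes and with the 0.6 set fitted alone. After miR-193b Mthfd2 was called in 3 of 19.

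Phgdh, the first enzyme of serine synthesis, read 4.51 and 4.36 on the NC arrays and 4.19 and 4.20 after miR-365a, and 4.36 and 4.30 against 4.13 and 4.00 after miR-193b. The differences were -0.24 ± 0.12 and -0.27 ± 0.12 (limma adjusted p = 0.217 and 0.250). The scanner files place this brightest probe on chromosome 17, whereas RefSeq has Phgdh on chromosome 3, and whether it reads another copy was not tested. The other 2 Phgdh probes lie on chromosome 3 and differed by -0.24 and -0.23 after miR-365a and by -0.38 and -0.40 after miR-193b. Psat1, the transaminase of the second step, read 5.41 and 5.06 on the NC arrays and 5.07 and 4.89 after miR-365a, a difference of -0.26 ± 0.18 with overlapping groups (limma adjusted p = 0.395). After miR-193b Psat1 read 4.90 and 5.14 against 4.98 and 5.22, which also overlapped, a difference of -0.082. A dimmer Psat1 probe differed by -0.31 after miR-193b and by -0.13 after miR-365a. Psph, the phosphatase of the last step, differed by 0.27 and 0.0945 and was the 1 gene of the list above 0 after miR-365a. Mthfd1 differed by -0.43 and -0.29, Shmt2 by -0.15 and -0.28, Shmt1 by -0.11 and -0.15 and Mthfd1l by 0.0078 and -0.20, in that order of microRNA. Dimmer probes gave -0.44 and -0.039 for Shmt1, -0.059 and -0.11 for Mthfd1l and 0.13 and 0.14 for Psph.

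Transsulfuration makes cysteine from homocysteine through Cbs and then Cth. Cbs was not part of the rule for genes named with values and is given because its difference after miR-193b was near the threshold. It read -1.54 on both NC arrays of the 0.2 set and -0.83 and -0.44 after miR-193b, a difference of 0.90 ± 0.18 or 1.87-fold (limma adjusted p = 0.0543). Of 19 alternatives, 4 called it. In the 0.6 set it read -0.52 and -0.51 on the NC arrays and -0.39 and -0.05 after miR-365a, a difference of 0.29 ± 0.18 (limma adjusted p = 0.321). Cth, the second enzyme, differed by 0.27 and 0.052.

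None of the 14 cytosolic transfer RNA synthetase genes was called in either comparison by limma, against 2.92% and 15.8% of all genes. At an unadjusted p under 0.05 there were 0 after miR-193b (against 21.5% of all genes) and 3 after miR-365a (21.4%, against 31.3%). Nars was called after miR-365a with a trended robust variance and with slide as a random block. The 3 genes, outside the rule for named genes, were Nars at 0.36, Cars at -0.26 and Yars at -0.41. After miR-193b the differences ran from -0.37 (Yars) to 0.26 (Eprs) with a median of 0.0987, and 11 of 14 were above 0. After miR-365a they ran from -0.41 to 0.36 with a median of 0.0757, and 8 of 14 were above 0. Of all genes tested, 44.4% were below 0 after miR-193b and 47.0% after miR-365a. The 95% intervals of the single genes reached at most 1.72-fold after miR-193b and 1.77-fold after miR-365a, so differences up to that size lie within them. Gars read between 6.50 and 6.83 on all 8 arrays, and Wars between 3.56 and 3.68.

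Each microRNA was used only in its own set. A comparison of their effects therefore also spans the amount label, the slides and the scan, which cannot be told apart from the microRNAs. Within that limit the effects were compared. For none of the 38 genes did they differ at an adjusted p under 0.05 in limma, against 3.56% of all genes tested, 1.13% with a higher and 2.43% with a lower miR-365a effect. That share of all genes was 0% without a filter on dim probes and between 0.0224% (without NC replicate 2 of the 0.6 set) and 3.18% when any 1 array was left out. At an unadjusted p under 0.05 there were 5 (13.2%), against 20.2% of all genes. With other processing the adjusted count was 0 or 1, the 1 being Asns. The differences of 27 of the 38 genes (71.1%) had the same sign after both microRNAs, 16 above 0 and 11 below, and so did those of 59.6% of all genes tested. The 10 tested genes with a promoter match had a median of 0.0945 after miR-193b and -0.0938 after miR-365a, where 5 were above and 5 below 0.

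The NC arrays of the sets also differed, although both carried control cells. Of the 38 genes, 3 were called by limma between them, against 15.6% of all genes, 11.6% higher and 4.04% lower in the 0.6 set. These genes lie outside the rule for named genes. Cbs was 1.02 higher in the 0.6 set (limma adjusted p = 0.0170), beside its difference of 0.90 after miR-193b. Lars and Eprs were lower by 0.59 and 0.69 (limma adjusted p = 0.0243 and 0.0316). The amount label, the slides and the scan differ together between the sets and cannot be told apart, so levels are read within a set.

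The neighbouring parts of the pathway were read from lists of genes outside the 40. None of 12 genes for eIF2 kinases, eIF2 and eIF2B subunits was called in either comparison, with medians of 0.12 after miR-193b and 0.16 after miR-365a. At an unadjusted p under 0.05 there were 3 and 2, or 25% and 16.7%. None of 17 mitochondrial synthetases was called, with medians of -0.12 and -0.10 and 2 and 4 genes (11.8% and 23.5%) at an unadjusted p under 0.05. The shares of all genes at that p were 21.5% and 31.3%, and 2.92% and 15.8% of all genes were called. Of 9 other cytosolic synthetases and scaffold genes, none was called after miR-193b and 1 after miR-365a (11.1%, against 15.8% of all genes). Eef1e1, a scaffold protein of the multisynthetase complex, fell by 0.66 after miR-365a (limma adjusted p = 0.0373).

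Of 17 other tested targets and partners of ATF4, 1 was called after each microRNA (5.88%, against 2.92% and 15.8% of all genes). Cebpa, a C/EBP factor of differentiation, read -1.48 and -2.10 on the NC arrays and -0.32 and -0.21 after miR-193b, and rose by 1.53 ± 0.21 or 2.88-fold (limma adjusted p = 0.0299). Sesn1, a p53-regulated relative of Sesn2, read -0.47 and -0.54 on the NC arrays and 0.25 and 0.09 after miR-365a, and rose by 0.68 ± 0.13 (limma adjusted p = 0.0195). The Cebpa call held in 11 of 19 alternatives. It was lost without either miR-193b array, without any 1 array of the 0.6 set, with the 0.2 set fitted alone and without a filter on dim probes (limma adjusted p = 0.0593 to 0.144). The Sesn1 call held in 14 of 19, as did the calls of Mthfd2l and Fpgs after miR-365a, that of Eef1e1 in 13 and that of Mtr in 11. All of these calls were lost without any 1 array of the 0.6 set and without a filter on dim probes. Those of Eef1e1 and Mtr were also lost with the 0.6 set fitted alone, and that of Mtr without either miR-193b array.

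Of 21 other tested folate and methionine cycle genes, 1 was called after miR-193b (4.76%, against 2.92% of all genes) and 4 after miR-365a (19%, against 15.8%), of which 2 rose and 2 fell. Aldh1l1, a cytosolic enzyme that oxidises formyl-tetrahydrofolate, was called in both comparisons. It read -0.12 and -0.30 on the NC arrays and 1.11 and 0.97 after miR-193b, a rise of 1.25 ± 0.15 or 2.37-fold (limma adjusted p = 0.0238). In the 0.6 set it read 0.29 and 0.58 on the NC arrays and 1.73 and 1.91 after miR-365a, a rise of 1.38 ± 0.15 or 2.60-fold (limma adjusted p = 0.00522). With the mean of all its probes the rises were 0.67 and 0.26 and neither was called (limma adjusted p = 0.642 and 0.876). Its dimmer probes thus gave smaller differences on average, and whether they cleared background was not examined. The Aldh1l1 call after miR-193b held in 10 of 19 alternatives. It was also lost without any 1 array of the 0.2 set, without either miR-365a array, with the 0.2 set fitted alone and without a filter on dim probes. After miR-365a it held in 18 of 19. Mtr, methionine synthase, rose by 0.50 after miR-365a (limma adjusted p = 0.0373). Mthfd2l, a paralogue of Mthfd2, fell by 0.60 and Fpgs, which adds glutamates to folates, fell by 0.58 (limma adjusted p = 0.0211 and 0.0345).

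**Figure D4:**
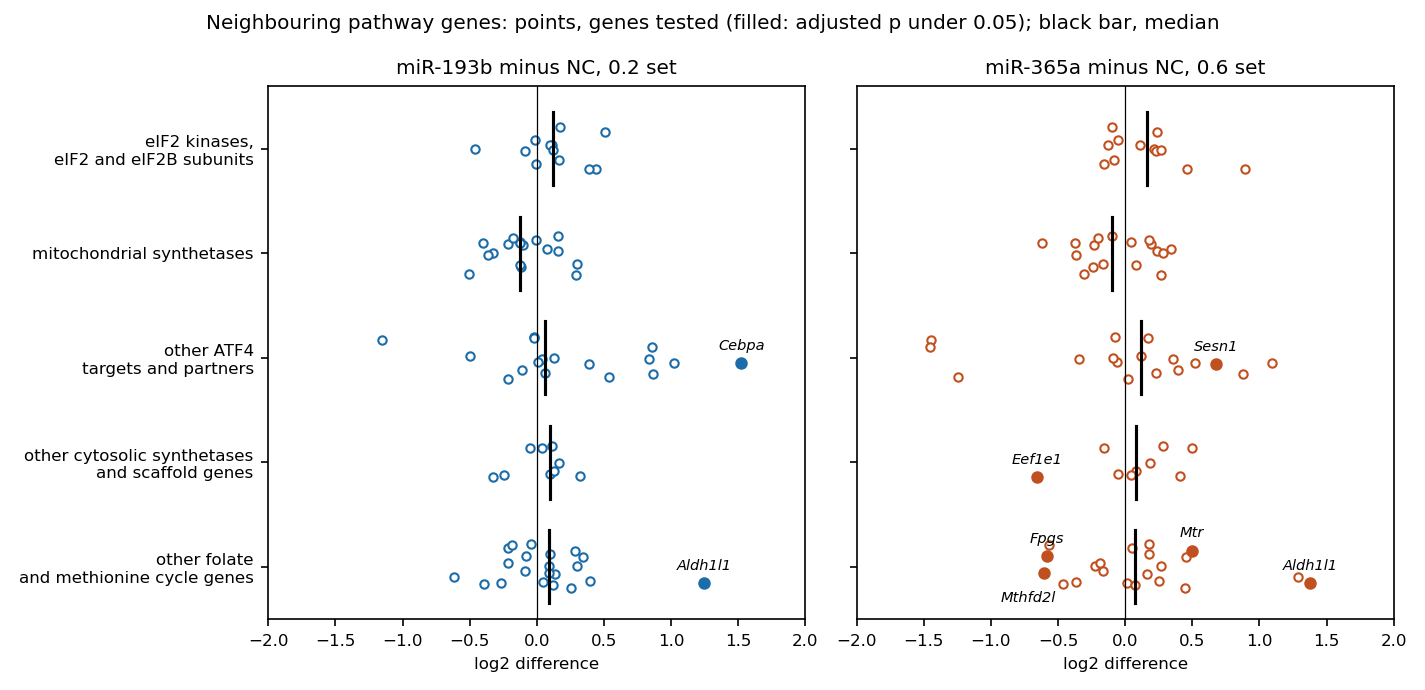
Each point is a tested gene of 1 of 5 neighbouring lists, at its log2 difference (x axis) after miR-193b (left) or miR-365a (right), with the list's median as a black bar and filled points for an adjusted p under 0.05. The medians lie between -0.12 and 0.16, and the named genes are those called.

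**Figure D5:**
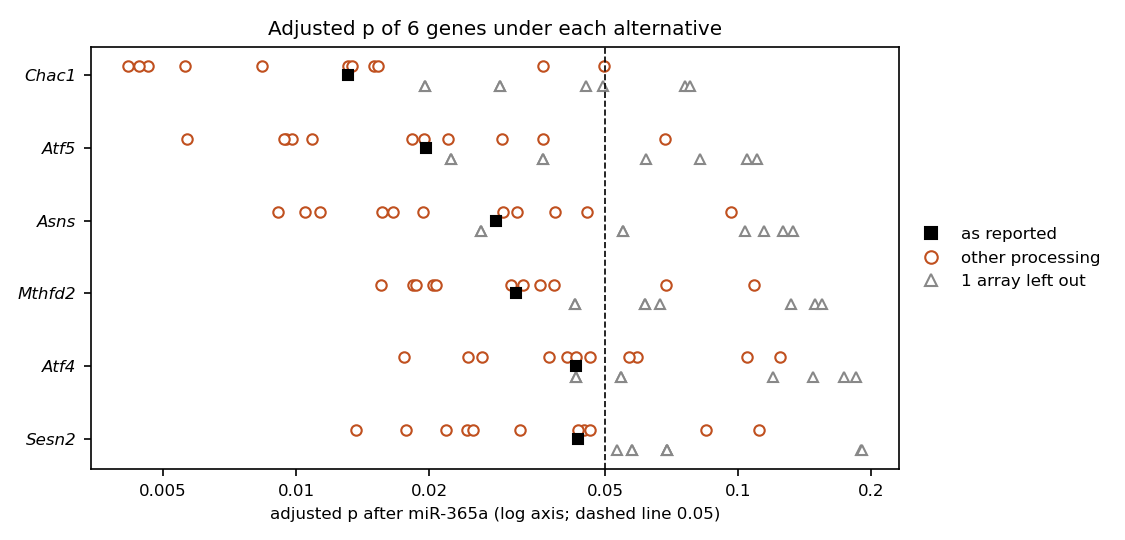
The limma adjusted p after miR-365a (x axis, log scale) of the 6 called genes is plotted as reported (black squares), with other processing (circles) and with 1 array left out (triangles), and the dashed line marks 0.05. Chac1 stayed under the line in 17 of 19 alternatives and Atf4 and Sesn2 in 9 of 19.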

How the data were processed

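The deposited scanner files hold processed signal intensity per spot from Agilent Feature Extraction 10.7.3.1, per the file headers, with probe positions on mm9. The deposited table of log2 values was made by the authors and is used as an alternative; its scale and centring steps are not given in the sources used here, beyond limma in the submitters' processing notes. Spots flagged as outliers and control spots were left out. From the log2 of the processed signal, the array's own 75th percentile was subtracted. One model in limma 3.58.1 (R 4.3.3) held the amount set and both microRNAs over all 8 arrays, with 4 residual degrees of freedom. Benjamini-Hochberg adjustment ran over 17855 genes. The few arrays limit the precision. Members and lists were chosen with earlier results of these data known. Values by array are given for members called and for Atf4, Ddit3, Asns, Chac1, Sesn2, Trib3, Psat1, Phgdh and Mthfd2, and called genes of each pathway list are named. Alternatives covered background correction, normalization, dim and flagged probes, probe averaging, variance model, slide, set and single arrays. One, array position in the 0.6 set, was chosen after seeing the data.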

Additional observations from a re-analysis of the deposited data

How the results depend on the processing

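The 6 genes called after miR-365a numbered 1 without a filter on dim probes, 4 to 7 with other processing, and 0 to 4 when 1 array was left out. The 0 called after miR-193b became 2 with normexp background correction, 2 with the deposited values, 1 when a probe had to clear background on every array, 3 with a trended robust variance and 1 with array position as a term in the 0.6 set; leaving out 1 array gave 0. The 0 genes whose effects differ became 1 with normexp, the filter on all 8 arrays, the trended variance or slide as a random block. The 3 genes called between the NC sets became 8 with normexp, 8 with the deposited values, 6 with the trended variance, 1 with slide as a block, 0 without a filter and 0 to 2 without 1 array. The median after miR-193b was 0.0346 with normexp, 0.0333 with quantile normalization, 0.0205 with the deposited values and 0.0425 to 0.118 without 1 array. The median after miR-365a was 0.0351 with normexp, 0.0360 with quantile normalization and 0.0251 with the deposited values. It was -0.0514 with the mean of all probes and -0.0912 to 0.0050 without 1 array. Uncalled differences near 0 changed sign after miR-193b. Atf4 was 0.0185 with slide as a block, 0.20 within slide 1 and -0.18 to 0.14 without 1 array. Ddit3 was -0.22 within slide 1 and -0.22 to 0.48 without 1 array, Trib3 -0.0795 to 0.26 and Psat1 -0.20 to 0.0394. The cause was not tested. Arrays were not paired by replicate, because the labels give no replicate numbers and those used here follow accession order. Array position was a term in the 0.6 set only. By slide, the median after miR-193b was 0.0939 within slide 1 and 0.0927 across slides 2 and 3. Stc2 and Vldlr, near background, have no measured difference.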
